A study of Mus musculus with 19 samples.

Results

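Tumors of the mouse cerebellum that arose after Ptch1 was targeted in Nestin-expressing cells were compared with tumors that arose after Ptch1 was targeted in Math1-expressing cells. The comparison rests on 8 of the 19 arrays of the study, the 4 titled NEP Tumor and the 4 titled GNP Tumor, which were chosen by title alone. NEP tumors came from Nestin-CreERT2/Ptch1C/C mice and GNP tumors from Math1-CreERT2/Ptch1C/C mice, so both groups share the Ptch1C/C alleles and differ in the promoter that drives the recombinase. Both groups share the strain, C57BL/6, and a CreERT2 transgene, a recombinase that acts once tamoxifen or a like compound is given. The cells were isolated from the cerebellum and were neither cultured nor treated, per the labels. The age and sex of the mice, the time of induction, the share of cells that recombined and any pooling of animals are not given in the labels. The labels do not say whether the 4 arrays of each tumor come from 4 animals, and the p-values below measure only the spread between these arrays. The other 11 arrays hold NEP, GNP and NSC progenitors (4, 4 and 3 arrays), and the question stated for the tumors is how alike they are.

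Sonic hedgehog (SHH) medulloblastoma is a tumor of the granule neuron lineage. SHH made by Purkinje cells binds Ptch1 on granule neuron progenitors and thereby frees Smo, which lets the GLI transcription factors switch on genes of proliferation; loss of Ptch1 leaves Smo free without the ligand. Math1, now named Atoh1, is the transcription factor that sets up granule neuron progenitors, while Nestin is an intermediate filament of neural stem cells, glia and some progenitors.

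Signals are log2 values from Affymetrix Mouse430+2 arrays, and each difference is the NEP tumor mean minus the GNP tumor mean on that scale, with its standard error (SE). Genes of the X and Y chromosomes were left out. A gene was tested when its probe set reached the array's median signal on at least 4 of the 8 arrays (medians of 2.47 to 2.55), and was called at an adjusted p below 0.05 in limma. A signal at or below that median was not told apart from background, so a fold against such a group has no firm size.

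The tumors were alike in most genes and differed by 2-fold or more in a small share. Of 10760 genes tested, 9935 (92.3%) had a 95% interval of the difference that lay within 2-fold in either direction. The fit called 3556 genes (33%), of which 2222 (20.7%) were higher and 1334 (12.4%) lower in NEP tumors. Each count of calls in a gene list below is to be read against these shares. Differences of at least 2-fold were called for 317 genes (2.95%), 175 higher (1.63%) and 142 lower (1.32%). The arrays of the groups did not overlap in 3724 genes (34.6%), with NEP tumors above in 2260 (21%) and below in 1464 (13.6%). The median difference over all genes tested was 0.055, and the share of calls that were higher, 62.5%, depended on the scaling. It was 52% after a second quantile normalization and 45.9% after each array was centred on the median of the tested genes.

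**Figure D1:**
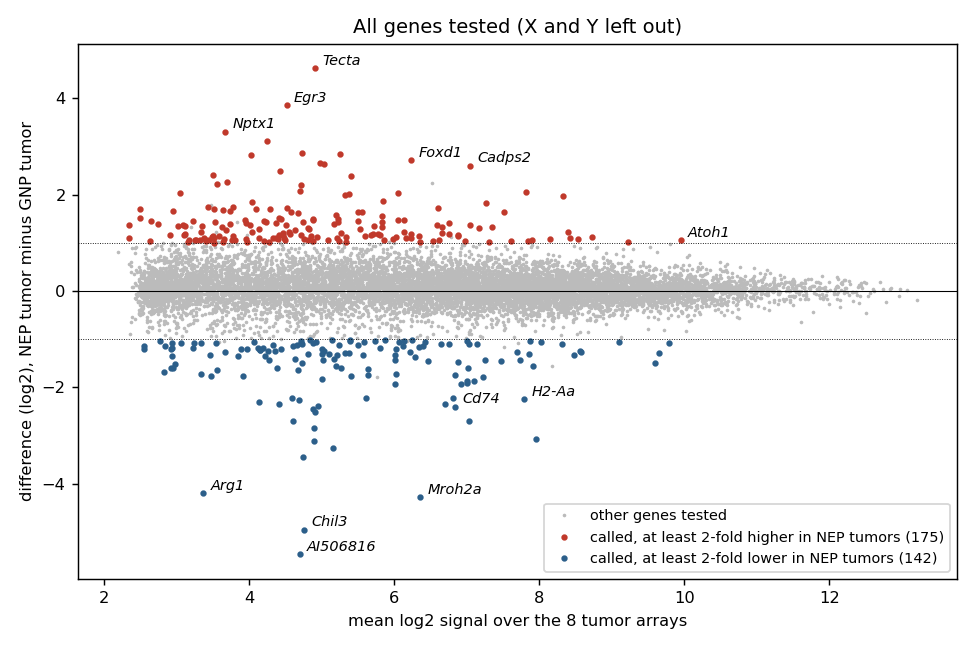
Each point is a gene, with its mean log2 signal over the 8 tumor arrays on the horizontal axis and the difference, NEP tumor minus GNP tumor (log2), on the vertical axis. The 175 genes in red and the 142 in blue were called and at least 2-fold apart (dotted lines), and Tecta and AI506816 lie farthest out in each direction.

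Several measures of the arrays moved with the groups or split one of them. Across genes, GNP tumor arrays correlated at r = 0.9964 to 0.9976 in 6 pairs, NEP tumor arrays at 0.9816 to 0.9955 in 6 pairs, and arrays of different groups at 0.9762 to 0.9828 in 16 pairs. NEP tumor arrays 1 and 2 stood apart from array 3, with 387 genes at least 2-fold apart, and array 4 lay between them in 383 of these. Over all genes tested, 20.8% were called higher and 13.6% lower without NEP tumor arrays 1 and 2, and 24.7% and 14.6% without arrays 3 and 4. List counts given below without these arrays are to be read against these shares. Xist, the RNA of the inactive X chromosome of females, stood at 10.39, 10.04, 10.60 and 10.53 on NEP tumor arrays 1 to 4 and at 3.24, 2.76, 2.51 and 3.24 on GNP tumor arrays 1 to 4. The Y-linked gene Eif2s3y stood at 1.46 ± 0.19 (SD, n = 4) against 7.57 ± 0.074, so that sex and Cre driver cannot be told apart in these arrays. For the actin control probe sets, the signal at the 3′ end less that at the 5′ end, a measure of RNA integrity in other labelling protocols, was 0.42 to 0.54 in NEP tumors and 0.82 to 0.87 in GNP tumors. That of Gapdh was -0.11 to 0.06 against 0.25 to 0.38; the part of sex and of these control signals in the differences below was not tested.

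Genes of chromosomes 6 and 8 were shifted as a block, and not to the same degree on each tumor array. The shift is the median difference of a chromosome's genes from the GNP progenitor arrays, less that of the genes elsewhere. A number in the array titles is shared by the tumor and NSC arrays and differs from that of the GNP and NEP progenitor arrays, so that the reference arrays are of another array series than the tumors. For chromosome 6 it was 0.30, 0.29, 0.28 and 0.32 on GNP tumor arrays 1 to 4, and 0.45, 0.45, 0.09 and 0.27 on NEP tumor arrays 1 to 4. For chromosome 8 it was between -0.005 and 0.018 in GNP tumors, and 0.05, 0.06, 0.39 and 0.23 on NEP tumor arrays 1 to 4. The order of the NEP tumor arrays was thus opposite on the chromosomes: arrays 1 and 2 were highest on chromosome 6 and array 3 was highest on chromosome 8. On the other 17 chromosomes the shift of the 8 arrays lay between -0.13 and 0.08, and on the 11 progenitor arrays the shift of chromosomes 6 and 8 lay between -0.05 and 0.08, the NSC arrays of the tumors' own series included. On chromosome 8, 229 of 620 genes (36.9%) were called higher and 24 (3.87%) lower, and 81.8% of its genes had a difference above 0. DNA copy number was not measured.

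**Figure D2:**
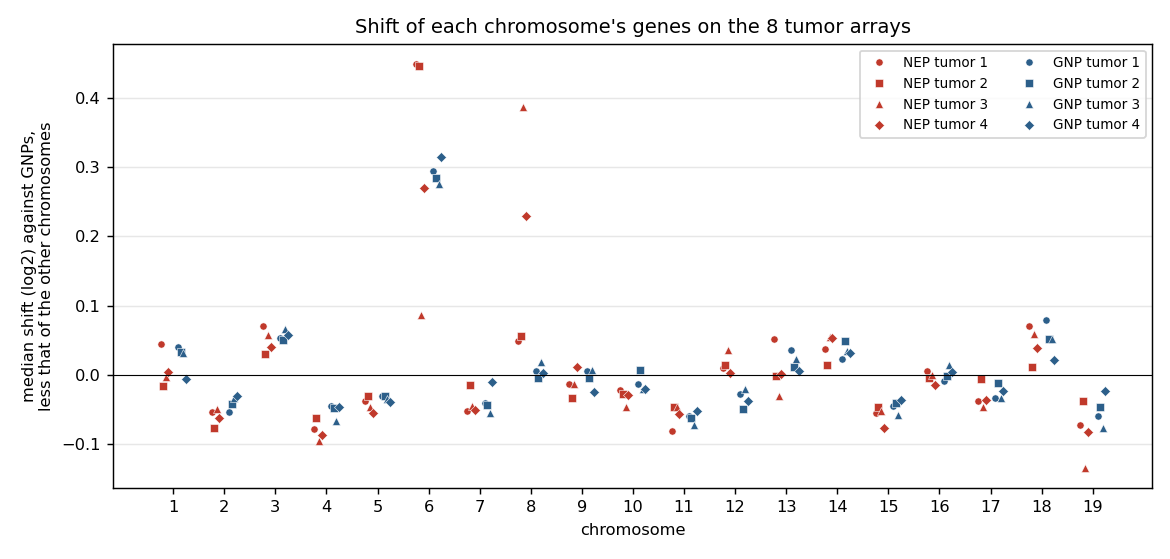
Median log2 shift of the genes of chromosomes 1 to 19 against the GNP progenitor arrays, less the shift of the other chromosomes, for each of the 4 NEP tumor arrays (red) and 4 GNP tumor arrays (blue). Chromosome 6 reaches 0.45 on NEP tumor arrays 1 and 2 and chromosome 8 reaches 0.39 on NEP tumor array 3, while the other 17 chromosomes stay between -0.13 and 0.08.

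Atoh1 was higher in NEP tumors, while most other transcription factors of the granule lineage that were tested were not called. Atoh1 stood at 10.50, 10.67, 10.31 and 10.41 on NEP tumor arrays 1 to 4 and at 9.38, 9.45, 9.44 and 9.44 on GNP tumor arrays 1 to 4. Every NEP tumor array lay above every GNP tumor array, by a difference of 1.05 (SE 0.083, adjusted p = 5.91e-05), or 2.06-fold. Of 24 listed factors, 19 were tested, and 2 others were dim on all tumor arrays. Of the 19, 5 were called higher (26.3%, against 20.7% of all genes tested) and 0 lower (against 12.4%), with a median difference of 0.08. The called members were Atoh1, Pax6 (0.92), a factor of granule progenitors and granule neurons, Uncx (0.80), Nhlh2 (0.53) and Neurod2 (0.37). Barhl1, a homeobox factor of the lineage, had a difference of 0.08, Zic1, which granule progenitors need, 0.01, and Neurod1, a factor of their differentiation, 0.17, and these were not called. Neurod1 was called without NEP tumor arrays 1 and 2, with a difference of 0.44. Atoh1 lies on chromosome 6, and its difference was 0.93 without NEP tumor arrays 1 and 2, which have the larger chromosome 6 shift, and 1.16 without arrays 3 and 4. In a fit of all 19 arrays with 1 shared variance the calls of Atoh1, Uncx and Neurod2 ended, at adjusted p = 0.12, 0.514 and 0.421. That fit leaves the tumor differences as they are and pools the spread within the tumor groups with that within the progenitor and NSC groups. The variance of a gene can thus rise or fall. For Atoh1 the SD was 1.6 in NEP progenitors, against 0.15 in NEP tumors and 0.034 in GNP tumors. The same holds wherever the fit of 19 arrays is named below.

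Genes of granule neuron differentiation were mixed, and the largest difference among them was that of Cadps2. Cadps2, which primes dense-core vesicles for release and is made by granule cells, stood at 7.97, 8.15, 8.75 and 8.48 on NEP tumor arrays 1 to 4 and at 5.62, 5.80, 5.58 and 5.94 on GNP tumor arrays 1 to 4. The groups did not overlap, and the difference of 2.60 (SE 0.16, adjusted p = 1.3e-05) was 6.06-fold. Cadps2 lies on chromosome 6, and its difference was 2.88 without NEP tumor arrays 1 and 2 and 2.32 without arrays 3 and 4. Of 28 members tested, 10 were called higher and 3 lower, with a median of 0.24. The counts were 13 and 3 without NEP tumor arrays 1 and 2, and 11 and 8 without arrays 3 and 4. Plxna2, a semaphorin receptor, stood 3.31-fold higher (1.73, SE 0.11), Syt1, the calcium sensor of synaptic vesicle release, 1.85-fold (0.89), Cbln3, a secreted protein of granule neurons, 1.63-fold (0.71) and Gabra6, the GABA receptor subunit of mature granule neurons, 1.63-fold (0.70). Cntn2, the contact protein TAG-1 of granule cells that leave the cycle, was lower by 0.85 (SE 0.19, adjusted p = 0.00838), and Chgb, a granin of secretory vesicles, by 0.50. Tubb3, the neuronal tubulin, was the third lower call at -0.60. It lies on chromosome 8, and the call ended without GNP tumor array 2, 3 or 4 or NEP tumor array 2 (adjusted p = 0.0506 to 0.0539). In the fit of 19 arrays the calls of Cntn2, Chgb and Tubb3 ended (adjusted p = 0.425, 0.322 and 0.47).

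**Figure D3:**
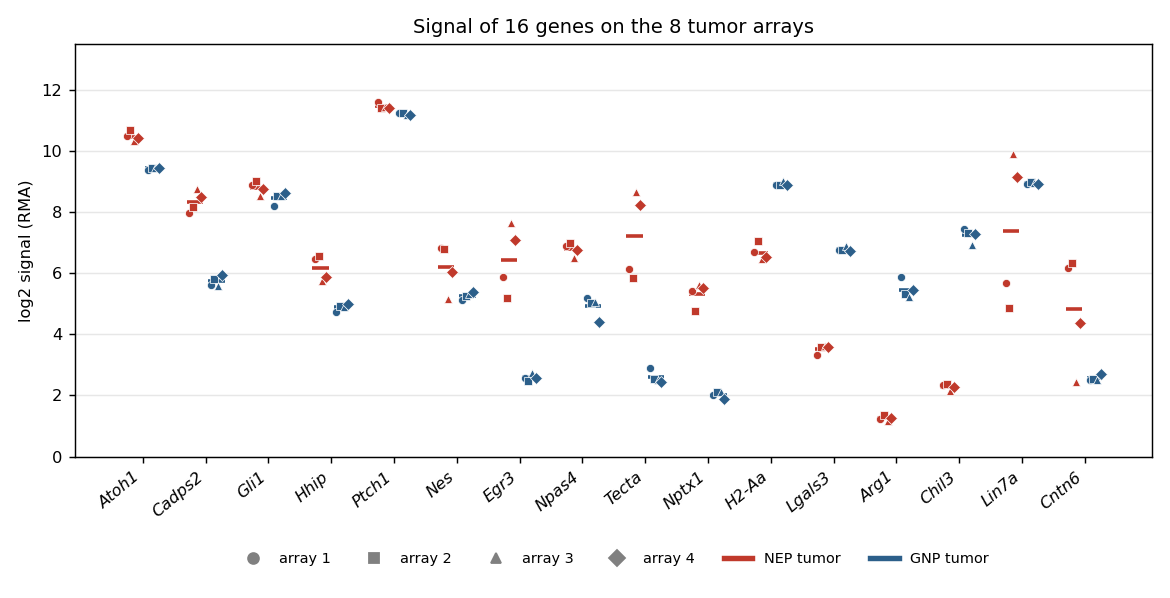
Log2 signal of 16 genes on each of the 4 NEP tumor arrays (red) and 4 GNP tumor arrays (blue), with the marker shape giving the array number and the bar the group mean. Atoh1, Cadps2, Egr3 and Npas4 lie higher on every NEP tumor array, H2-Aa, Lgals3, Arg1 and Chil3 lie lower on every one, and Lin7a and Cntn6 split the NEP tumor arrays.

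On the probe sets used, some receptors and surface modulators of the SHH pathway were higher in NEP tumors, by at most 1.45-fold except for Hhip. Of 8 tested, 5 were called higher and 0 lower, with a median of 0.25. One of the 5 is Ptch1, whose probe sets disagree, and without it 4 of 7 were called higher, with a median of 0.26. Hhip, which binds SHH and is itself a target of the pathway, stood at 6.48, 6.56, 5.73 and 5.89 on NEP tumor arrays 1 to 4 and at 4.72, 4.92, 4.89 and 4.99 on GNP tumor arrays 1 to 4. The groups did not overlap, and the difference was 1.28 (SE 0.18, adjusted p = 0.00094), or 2.44-fold. Hhip lies on chromosome 8, and its difference was smaller on the arrays with the larger shift, at 0.93 without arrays 1 and 2 and 1.64 without arrays 3 and 4. The coreceptors Gas1 and Boc were higher by 0.54 (adjusted p = 0.00383) and 0.36 (adjusted p = 0.00201), and Smo, the signal transducer, which lies on chromosome 6, by 0.26 (adjusted p = 0.0131). Under the alternative ways of processing, the difference of Smo ran from 0.19 to 0.83. Boc was not called in the fit of 19 arrays (adjusted p = 0.0702).

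The probe sets of Ptch1 gave opposite directions. The brightest stood at 11.59, 11.39, 11.45 and 11.41 on NEP tumor arrays 1 to 4 and at 11.24, 11.24, 11.18 and 11.18 on GNP tumor arrays 1 to 4, a difference of 0.25 (SE 0.067, adjusted p = 0.0203). A second, dimmer one stood at 4.16, 4.18, 4.51 and 4.41 in NEP tumors and at 5.56, 5.26, 5.34 and 5.27 in GNP tumors, a difference of -1.04, and the mean of all Ptch1 probe sets gave -0.33. The call of the brightest probe set ended without GNP tumor array 3 or 4 (adjusted p = 0.0582 and 0.0534), in the fit of 19 arrays (0.0908) and after centring on the tested genes (0.0684). The labels do not give the deleted part of Ptch1, so none of these probe sets checks the deletion, and no direction is given here for the gene.

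Of 12 GLI factors and regulators tested, 3 were called higher (25%, against 20.7% of all genes) and 0 lower (against 12.4%). The median of the list was 0.01. There were 3 higher and 2 lower without NEP tumor arrays 1 and 2, and 5 and 1 without arrays 3 and 4. Gli1, the factor whose own transcript reads out the pathway, stood at 8.87, 9.03, 8.53 and 8.77 on NEP tumor arrays 1 to 4 and at 8.21, 8.54, 8.52 and 8.61 on GNP tumor arrays 1 to 4. The groups overlapped, and the difference of 0.33 (95% interval 0.05 to 0.61, adjusted p = 0.0666) was not called. It was called without NEP tumor array 3 (0.42, adjusted p = 0.0154) and with limma's variance trend (adjusted p = 0.0472). The called members were Evc2 (0.73, adjusted p = 0.00117), a ciliary protein that transmits the signal of Smo, Sufu (0.60, adjusted p = 0.000388), the inhibitor that holds GLI proteins, and Gli2 (0.40, adjusted p = 0.00233), the main activator. Gli3, the main repressor, had a difference of -0.26 and was not called.

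Among 15 targets of SHH in granule progenitors, 8 were called higher and 2 lower, with a median of 0.25. Hhip is a member of this list and of the receptor list above, so the counts of these lists are not separate. Mycn, the MYC family member that SHH induces, stood at 9.91, 10.02, 10.44 and 10.25 in NEP tumors and at 9.58, 9.62, 9.65 and 9.71 in GNP tumors, a difference of 0.52 (SE 0.11, adjusted p = 0.00751). Ccnd2, a cyclin of granule progenitors that lies on chromosome 6, was higher by 0.25 and lost the call without NEP tumor arrays 3 and 4 (adjusted p = 0.0529) and after centring (0.0634). Igf2, the growth factor that many SHH tumors make, went the other way: it stood at 4.96, 4.75, 5.91 and 5.56 in NEP tumors and at 6.59, 6.82, 6.82 and 6.65 in GNP tumors. Its difference of -1.43 (SE 0.23, adjusted p = 0.00169) was 2.69-fold, and it was not called in the fit of 19 arrays (adjusted p = 0.142). No GLI motif (TGGGTGGTC, either strand) lay in the 250 bases before the start of the 8 of 17 listed targets or of the 10 of 12 listed receptors that had a promoter entry in RefSeq (GRCm38.p6). Of all 32851 RefSeq promoters, 0.225% held one, and a window this short says nothing on the binding of GLI factors elsewhere.

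The largest differences were taken among called genes that did not overlap between groups and reached the array median on every array of the higher group. Under this rule, the 15 genes with the largest positive differences were 4.65- to 24.6-fold higher in NEP tumors, and their arrays spread more widely there. In 13 of the 15, NEP tumor arrays 3 and 4 both lay above arrays 1 and 2, and the median SD was 0.62 in NEP tumors against 0.16 in GNP tumors. Over all genes tested the median SDs were 0.151 and 0.0982. The 15 were picked for a high signal in NEP tumors, so neither figure stands for genes at large. Tecta, which encodes alpha-tectorin, a matrix protein known from the inner ear, stood at 6.14, 5.85, 8.67 and 8.23 on NEP tumor arrays 1 to 4 and at 2.91, 2.55, 2.51 and 2.44 on GNP tumor arrays 1 to 4. Its difference was 4.62 (SE 0.58, adjusted p = 0.000543), with 5.85 without NEP tumor arrays 1 and 2 and 3.39 without arrays 3 and 4. Nptx1, neuronal pentraxin 1, which gathers AMPA receptors at synapses, stood at 5.43, 4.75, 5.61 and 5.51 against 2.00, 2.11, 2.10 and 1.88. The GNP tumor signals of both genes were near or below the array median, while the NEP tumor signals lay clearly above it. Egr3, Cth, Lhx3 and Grik3, named below, also had GNP tumor means near or below it, at 2.59, 2.3, 2.44 and 2.61.

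The other members of this group came from several gene families. They were Egr3 (3.85), described below, and Car3, a carbonic anhydrase (3.11); Krt12, a keratin (2.86); Tfpi, the inhibitor of tissue factor (2.85); and Grik3, a kainate receptor subunit (2.83). Foxd1, a forkhead factor, differed by 2.71, Diras2, a Ras-like GTPase, by 2.66, and Mr1, which presents vitamin metabolites to T cells, by 2.63. Cadps2 followed at 2.60. Mir124-2hg, the host transcript of a neuronal microRNA whose mature form was not measured, differed by 2.49. Cth, an enzyme of cysteine synthesis, differed by 2.40, Patj, a polarity protein of the Crumbs complex, by 2.39, and Lhx3, a LIM homeobox factor, by 2.22. Cth was the member with the opposite order within NEP tumors, at 5.29, 5.24, 3.64 and 4.64 on arrays 1 to 4 against 2.18 to 2.42 in GNP tumors. Mr1, at 6.06, 6.43, 6.50 and 6.43 against 3.72, 3.89, 3.60 and 3.68, had an SD of 0.2 in NEP tumors, with array 1 the lowest.

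Under the same rule, the 15 genes with the largest negative differences were 5.2- to 44.3-fold lower in NEP tumors. Among them were genes of myeloid cells and of antigen presentation. AI506816 had the largest, at 1.72, 2.16, 2.20 and 1.74 on NEP tumor arrays 1 to 4 against 7.13, 7.46, 7.64 and 7.48 on GNP tumor arrays 1 to 4, a difference of -5.47 (SE 0.15, adjusted p = 3.97e-08). Chil3, a chitinase-like protein of macrophages, stood at 2.34, 2.36, 2.13 and 2.27 against 7.44, 7.33, 6.93 and 7.27. Arg1, the arginase of macrophages in their alternative state, stood at 1.24, 1.36, 1.18 and 1.26 against 5.87, 5.32, 5.22 and 5.45. These 3 genes lay below the array median on every NEP tumor array and far above it on every GNP tumor array, so that the difference here is between a signal and background.

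Lgals3, the lectin galectin-3 of activated macrophages and other cells, was lower by 3.25 (SE 0.082, adjusted p = 3.13e-08), at 3.32, 3.59, 3.61 and 3.57 against 6.75, 6.77, 6.88 and 6.73. Rgs1, a G protein regulator of leukocytes, was lower by 2.52. Mroh2a was lower by 4.28, Ak1, an adenylate kinase, by 3.44, Zdbf2, an imprinted gene, by 3.11, and Islr2, a membrane protein of neurons, by 3.07. Maff, a small MAF factor, was lower by 2.85, Dusp10, a phosphatase of stress kinases, by 2.71, BC034090 by 2.69 and Tubb6, a tubulin, by 2.46. Mroh2a, Zdbf2, Dusp10, BC034090 and Rgs1, 5 of the 15, lie on chromosome 1, a count seen after the values were known. Chromosome 1 holds 620 of the 10760 genes tested and 20 of the 317 called at least 2-fold apart, and its median difference was 0.031.

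Genes of the MHC class II pathway, which presents peptides to helper T cells and is made by microglia, macrophages and dendritic cells, were lower together. H2-Aa stood at 6.69, 7.04, 6.45 and 6.52 on NEP tumor arrays 1 to 4 and at 8.88, 8.88, 9.02 and 8.90 on GNP tumor arrays 1 to 4. Its difference was -2.25 (SE 0.12, adjusted p = 4.8e-06), or 4.74-fold. H2-Ab1 (-2.26), H2-Eb1 (-2.38) and Cd74, the invariant chain (-2.41), differed by nearly the same amount, and no array of one group overlapped the other in these 4 genes. The 4 were the lower calls among 10 genes of interferon response and antigen presentation tested, of which 1 was called higher, with a median of -0.20. That gene was B2m, the light chain of MHC class I (0.72, adjusted p = 0.0015), which was not called in the fit of 19 arrays (adjusted p = 0.108). The class I heavy chains H2-K1 and H2-D1 had differences of 0.25 and 0.29 and were not called, though they were without NEP tumor arrays 1 and 2 (0.50 and 0.59).

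The promoters of H2-Aa and H2-Eb1 are shown because the MHC class II genes moved together and are known to share upstream boxes. The 150 bases before each start site are from RefSeq (GRCm38.p6), 5′ to 3′ on the strand of the gene, with matches to CCAAT and to the cAMP response element TGACGTCA in capitals (either strand). These motifs were chosen after the values were seen.
H2-Aa, chr17:34287824-34287973, minus strand: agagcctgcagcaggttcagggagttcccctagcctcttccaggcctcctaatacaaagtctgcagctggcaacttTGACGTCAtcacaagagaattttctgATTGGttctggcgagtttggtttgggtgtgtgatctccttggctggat
H2-Eb1, chr17:34305717-34305866, plus strand: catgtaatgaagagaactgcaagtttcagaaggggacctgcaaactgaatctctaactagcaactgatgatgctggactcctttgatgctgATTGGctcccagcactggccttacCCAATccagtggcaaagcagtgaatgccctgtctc
Both windows held the inverted CCAAT letters, starting 48 bases before the start of H2-Aa and 59 bases before that of H2-Eb1, and H2-Eb1 held a second, forward copy 35 bases before its start. H2-Aa alone of the pair held the full cAMP response element, 74 bases before its start. CCAAT lay in 33.8% of all 32851 RefSeq windows of 250 bases and the full element in 1.55%, so that the first match is common and the second is not.

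Markers of microglia and macrophages were lower in NEP tumors, and lowest on arrays 1 and 2. Of 16 tested, 0 were called higher and 11 lower, with a median of -1.04. The array medians of the list were 3.58, 3.42, 4.35 and 3.98 on NEP tumor arrays 1 to 4 and 4.53 to 5.06 in GNP tumors, and the log2 of the summed signal was 8.74 to 9.94 against 10.32 to 10.37. Without NEP tumor arrays 1 and 2, 8 were called lower (13.6% of all genes), and without arrays 3 and 4, 16 were (14.6%). 4 of the 20 listed markers, among them P2ry12 and Tmem119, were not tested. In bulk tissue fewer cells of a type and less RNA per cell cannot be told apart. Ctss, a lysosomal protease, stood at 7.64, 7.47, 8.46 and 8.21 on NEP tumor arrays 1 to 4 and at 9.28, 9.17, 9.17 and 9.19 in GNP tumors, a difference of -1.26 (SE 0.20, adjusted p = 0.00152). Ptprc, the leukocyte antigen CD45, was lower by 1.14 (adjusted p = 0.000155) and Mrc1, a mannose receptor of tissue macrophages, by 1.09 (adjusted p = 0.00265). The NEP tumor mean of Mrc1, 2.51, lay near the array medians. Csf1r, the receptor on which microglia depend, stood at 4.76, 5.03, 6.55 and 5.81 in NEP tumors and at 6.47, 6.53, 6.56 and 6.80 in GNP tumors. Array 3 overlapped the GNP tumors, and the call (-1.05, adjusted p = 0.0372) ended when any single array other than NEP tumor array 3 was left out (adjusted p = 0.0556 to 0.0906), and in the fit of 19 arrays (0.537). The mean of all Csf1r probe sets gave -0.41 and was not called (adjusted p = 0.159). Cx3cr1, a chemokine receptor of microglia, and Trem2, a lipid receptor, had differences of -0.03 and -0.16 and were not called, though they were without NEP tumor arrays 3 and 4 (-0.45 and -0.48). The difference of H2-Aa, by contrast, was -2.43 without NEP tumor arrays 1 and 2 and -2.06 without arrays 3 and 4. The calls of Ctss, Ptprc and Mrc1 ended in the fit of 19 arrays (adjusted p = 0.408, 0.405 and 0.516).

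Immediate early genes, which are induced within minutes by calcium entry or growth factors, did not move together. Of 19 transcription factors tested, 5 were called higher and 7 lower, with a median of -0.09. The balance turned with the NEP tumor arrays, to 4 higher and 7 lower without arrays 1 and 2 and to 7 and 5 without arrays 3 and 4. Egr3, a zinc finger factor downstream of neuronal activity and growth factors, stood at 5.87, 5.18, 7.63 and 7.09 on NEP tumor arrays 1 to 4 and at 2.58, 2.48, 2.73 and 2.58 on GNP tumor arrays 1 to 4. The difference of 3.85 (SE 0.45, adjusted p = 0.00037) was 14.5-fold, with 4.77 without NEP tumor arrays 1 and 2 and 2.94 without arrays 3 and 4. The GNP tumor signals lay close to the array medians of 2.54 to 2.55, and 1 of the 4 lay below, so the fold has no firm size. A second Egr3 probe set was dim on all 8 arrays, at 1.84 to 2.25, and its difference was -0.12. The Egr3 difference thus rests on 1 of 2 probe sets.

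Npas4, a factor induced by calcium entry in neurons, stood at 6.88, 6.99, 6.50 and 6.76 on NEP tumor arrays 1 to 4 and at 5.18, 5.01, 5.07 and 4.40 on GNP tumor arrays 1 to 4. It was 3.64-fold higher (1.87, SE 0.17, adjusted p = 0.000111), with no overlap. Fosl2 (0.45) and Ier5 (0.49) were higher by less. Atf3, a stress-induced factor, was lower by 1.44 (SE 0.31, adjusted p = 0.00783), at 7.13, 7.15, 5.55 and 6.32 against 7.90, 8.02, 8.03 and 7.94. Fosb was lower by 0.96 (SE 0.076, adjusted p = 5.91e-05) and Nr4a3 by 0.45. The signal of Nr4a3 lay below the array median on every NEP tumor array, at 2.08 to 2.35. The calls of Fosb in the fit of 19 arrays (adjusted p = 0.171) and of Fosl2 in the mean of all probe sets (0.132) ended, and the probe set of Nr4a3 that is brightest in tumors gave 0.07. Fos, Egr1 and Egr2, the members most often used as readouts, had differences of -0.09, 0.08 and 0.20 and were not called. Egr2 was called without NEP tumor array 3 (0.26, adjusted p = 0.0371).

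The promoter of Npas4 is shown because its difference was the largest among those of the immediate early genes with a promoter entry. The 250 bases before its start are from RefSeq (GRCm38.p6), 5′ to 3′ on the strand of the gene, with the core of the cAMP response element, TGACG, in capitals on either strand.
Npas4, chr19:4989972-4990221, minus strand: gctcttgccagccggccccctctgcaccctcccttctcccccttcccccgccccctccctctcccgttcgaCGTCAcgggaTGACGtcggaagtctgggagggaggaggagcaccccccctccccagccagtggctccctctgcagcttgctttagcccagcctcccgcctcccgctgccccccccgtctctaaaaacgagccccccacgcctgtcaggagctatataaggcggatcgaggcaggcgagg
Npas4 held a pair of these letters, inverted at 179 and forward at 169 bases before the start. Of 17 of the 20 listed immediate early genes with a promoter entry, 12 held the core, against 17.8% of all RefSeq windows; the 12 included Npas4, Fosb, Atf3 and Fos, whose differences ran in both directions or were not called. The full element was in 0 of the 17, the EGR motif GCGTGGGCG in 0 (0.536% of all windows), and the CArG box of serum response in 1, Egr2 (1.47% of all windows). These letters were counted on both strands, and every full element also counts as a core.

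Other genes of neuronal activity and stress were near the background, with 4 of 20 called higher and 3 lower and a median of -0.04. Here too the balance turned, from 3 higher and 5 lower without NEP tumor arrays 1 and 2 to 9 and 3 without arrays 3 and 4. Dusp5, a phosphatase of ERK, was higher by 0.81 (adjusted p = 0.00024), and Zfp36, which destabilizes cytokine mRNAs, was lower by 0.94 (adjusted p = 0.000388). Zfp36 was not called in the fit of 19 arrays (adjusted p = 0.259).

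Markers of stem cells and radial glia were mixed. Of 18 tested, 6 were called higher and 4 lower, with a median of 0.01. Nes, which encodes Nestin, stood at 6.84, 6.80, 5.17 and 6.04 on NEP tumor arrays 1 to 4 and at 5.12, 5.26, 5.31 and 5.38 on GNP tumor arrays 1 to 4. On this probe set, the brightest of Nes, array 3 lay among the GNP tumors. The difference was 0.94 (SE 0.32, adjusted p = 0.0486). It lost its call when any single array other than NEP tumor array 3 was left out (adjusted p = 0.0776 to 0.119). It was 0.34 without arrays 1 and 2 (adjusted p = 0.251). The call held in the limma fit that adds the progenitor and NSC arrays (adjusted p = 0.0172). A dimmer Nes probe set stood at 5.54, 5.44, 3.49 and 4.69 against 2.79, 2.96, 2.98 and 2.93. Its difference was 1.87, with no overlap. Another dimmer one had a difference of 0.42, with array 3 (4.36) below every GNP tumor array. Prom1, the stem cell antigen CD133, was higher by 1.01 (SE 0.10, adjusted p = 0.000165), at 6.77, 7.03, 6.76 and 6.89 against 5.79, 5.88, 5.66 and 6.07. Hes1, a repressor downstream of Notch, stood at 4.43, 4.86, 3.96 and 4.42 against 3.03, 3.04, 3.02 and 3.07, a difference of 1.38 (SE 0.16, adjusted p = 0.000334). Prom1 and Hes1 did not overlap between the groups. Pax3, a paired box factor of dorsal progenitors, was higher by 0.70 and Sox9, a factor of glial progenitors, by 0.64. Hopx, a homeodomain protein of radial glia, was lower by 1.12 (adjusted p = 0.00549).

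In the Notch pathway, 2 of 19 genes were called higher and 4 lower, with a median of -0.05. They were Hes1 and the ligand Dll3 (0.86, adjusted p = 0.00817) on one side, and on the other the ligand Dll1 (-0.47, adjusted p = 0.00258), the receptor Notch1 (-0.44, adjusted p = 0.0171), Dtx4 (-0.36) and Mfng (-0.24). Dll1 lay below the array median on every NEP tumor array, at 2.09 to 2.36, so its difference has no firm size. Hes5, another target of Notch, had a difference of -0.07 and was not called. Notch1 was not called in the fit of 19 arrays (adjusted p = 0.059) or in the mean of all probe sets (0.0752), and Dtx4 and Mfng were not called in the fit of 19 arrays (0.0672 and 0.112). The call of Mfng also ended when any of 6 single arrays was left out (adjusted p = 0.0639 to 0.11).

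Markers of other cell types moved in part with the split of the NEP tumor arrays. Of 20 markers of Bergmann glia and astrocytes tested, 3 were called higher and 8 lower, with a median of -0.36. The array medians of this list were 6.07, 6.20, 7.71 and 7.26 on NEP tumor arrays 1 to 4 and 7.42 to 7.60 in GNP tumors. Without NEP tumor arrays 1 and 2, 4 were called higher and 4 lower, and without arrays 3 and 4, 3 higher and 11 lower. Gfap, the filament of astrocytes, was lower on every NEP tumor array, at 5.37, 5.84, 5.40 and 5.32 against 6.59, 6.40, 6.54 and 6.12 (-0.93, SE 0.14, adjusted p = 0.00126). Clu, a secreted chaperone of astrocytes, was lower by 1.45 (adjusted p = 0.00701), with 0.85 of that left without arrays 1 and 2. S100b, a calcium-binding protein of glia, was higher by 1.07 (SE 0.18, adjusted p = 0.00237). Aqp4, the water channel of astrocyte endfeet, stood at 5.97, 6.20, 8.56 and 7.91 on NEP tumor arrays 1 to 4 and at 8.15 to 8.31 in GNP tumors. It was far below the GNP tumors on arrays 1 and 2 and above them on array 3, and was called without array 3 (-1.54, adjusted p = 0.0127) and not otherwise when single arrays were left out.

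Oligodendrocyte lineage markers were called higher in 3 and lower in 4 of 13, with a median of -0.03. The counts were 4 higher and 2 lower without NEP tumor arrays 1 and 2, and 2 and 5 without arrays 3 and 4. Olig2, a factor of oligodendrocyte and other progenitors, was higher by 1.02 (SE 0.089, adjusted p = 8.25e-05), at 7.88, 7.65, 7.96 and 7.79 against 6.71, 6.92, 6.87 and 6.69. Pdgfra, the growth factor receptor of oligodendrocyte precursors, was higher by 0.57 (adjusted p = 0.0035). Sox10, which marks the whole lineage, had a difference of -0.03 and was not called. Olig2 was not called in the fit of 19 arrays (adjusted p = 0.0552), nor Pdgfra in the mean of its probe sets (0.0908).

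Markers of GABAergic and Purkinje cells were called higher in 4 and lower in 1 of 8, with a median of 0.37, and in 2 and 2 without NEP tumor arrays 3 and 4. Gad1, which makes GABA, stood at 3.25, 2.98, 4.17 and 4.34 on NEP tumor arrays 1 to 4 and at 2.25, 2.44, 2.27 and 2.42 on GNP tumor arrays 1 to 4, a difference of 1.34 (SE 0.28, adjusted p = 0.00617). It was not called in the fit of 19 arrays (adjusted p = 0.0623). Pvalb, a calcium buffer of Purkinje cells and interneurons, was lower by 0.97 (SE 0.11, adjusted p = 0.000388). Pvalb was the 1 lower call of the list. The other higher calls were Calb1 (2.04, adjusted p = 0.0268), Car8 (1.47, adjusted p = 0.0377) and Pcp2 (0.62, adjusted p = 0.0246). Without NEP tumor arrays 3 and 4 the differences of Calb1, Car8 and Pcp2 were 0.87, 0.55 and 0.38. The GNP tumor means of Gad1, Calb1 and Pcp2, at 2.35, 2.02 and 2.57, lay near or below the array medians, so their differences have no firm size.

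Of 9 endothelial markers tested, 0 were called by limma, 2 had an unadjusted p under 0.05, and the median was 0.25. Without NEP tumor arrays 1 and 2, 8 were called higher and 0 lower (20.8% and 13.6% of all genes), and without arrays 3 and 4, 0 were called higher and 2 lower (24.7% and 14.6%). The 2 were Cldn5, a tight junction protein (-0.41, adjusted p = 0.0483), and Esam, an adhesion molecule (-0.28, adjusted p = 0.0338), which were among the 8 higher calls without arrays 1 and 2 (1.21 and 0.78). The direction of the list thus turned with the NEP tumor arrays. Cdh5, the cadherin of endothelial junctions, stood at 2.94, 2.54, 5.35 and 4.61 on NEP tumor arrays 1 to 4 and at 2.49 to 2.65 in GNP tumors. It lies on chromosome 8, and was called without NEP tumor array 2 (1.76, adjusted p = 0.0236). Of 15 markers of pericytes, fibroblasts and meninges, 2 were called higher and 5 lower, with a median of -0.07, against 5 and 5 without NEP tumor arrays 1 and 2 and 2 and 9 without arrays 3 and 4. The higher calls were Kcnj8, a potassium channel subunit of pericytes on chromosome 6 (2.20, SE 0.16, adjusted p = 3.83e-05), and Foxd1, given above. The lower calls included Aldh1a2, which makes retinoic acid in the meninges (-1.72, SE 0.15, adjusted p = 9.79e-05), and the matrix genes Col3a1 (-1.11) and Dcn (-1.03). The NEP tumor mean of Aldh1a2, 2.48, lay near the array medians. Kcnj8 and Foxd1 differed while Pdgfrb, the receptor that defines pericytes, did not reach the threshold, with a difference of -0.01. Col3a1 and Dcn were not called in the fit of 19 arrays (adjusted p = 0.279 and 0.429).

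Of 3 erythroid genes tested, 0 were called higher and 1 lower, Hbb-b2 (-0.61), and of 5 ependymal and choroid plexus genes 0 were called by limma and 0 had an unadjusted p under 0.05, with a median of -0.32. Of the latter, 2 were called lower without NEP tumor arrays 1 and 2 and 3 without arrays 3 and 4. Ttr, the main transcript of the choroid plexus, stood at 11.93, 11.63, 12.96 and 12.60 on NEP tumor arrays 1 to 4 and at 12.67 to 12.77 in GNP tumors, and was called lower without NEP tumor array 3 (-0.69, adjusted p = 0.0189). Of 3 genes of unipolar brush and cerebellar nuclear neurons, 1 was called higher, Calb2 on chromosome 8 (0.28), and the list's median was 0. The call of Calb2 ended when any of 6 single arrays was left out (adjusted p = 0.0566 to 0.13). None of the 12 listed lymphocyte genes was tested, and the 10 with a probe set were dim on all tumor arrays.

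**Figure D4:**
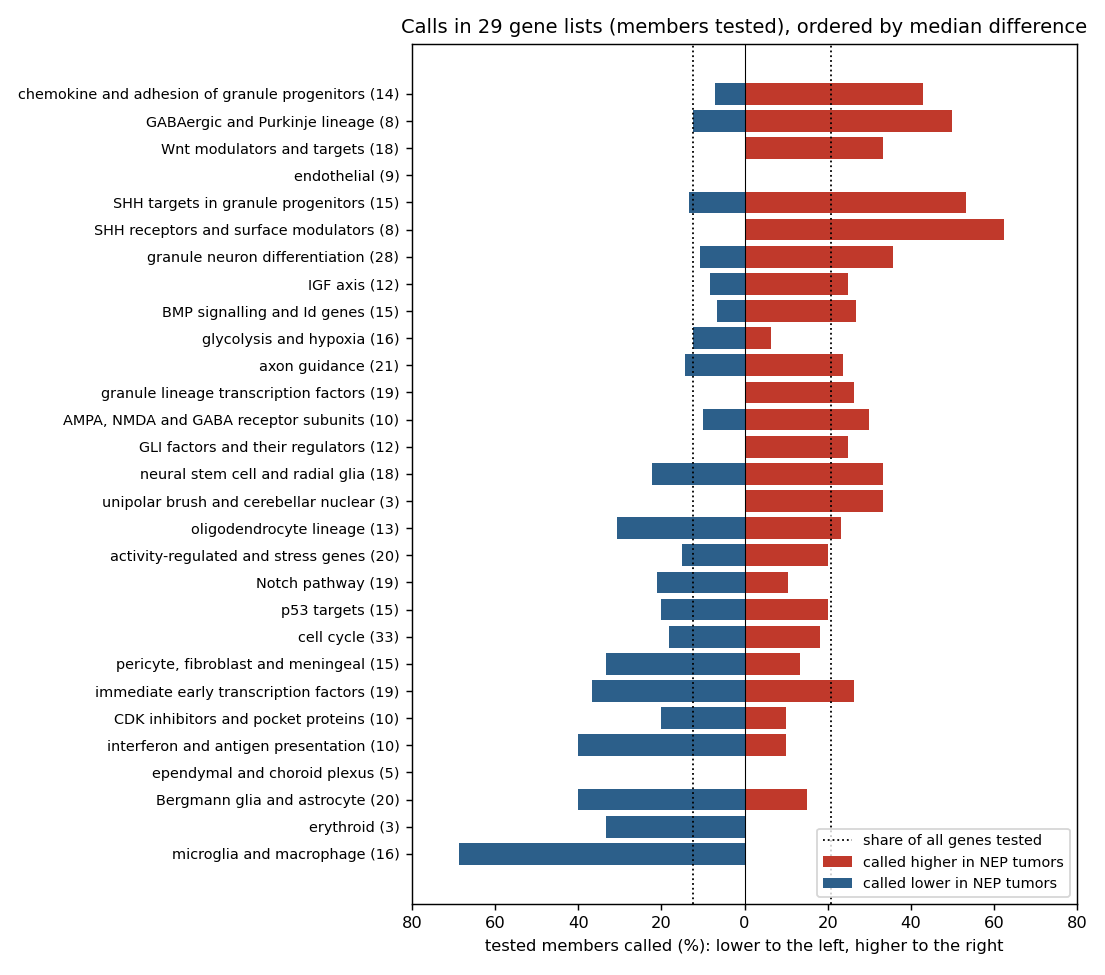
Share of tested members called higher (red, to the right) and lower (blue, to the left) in NEP tumors for the 29 lists with tested members, whose number is in parentheses, ordered by median difference. Dotted lines mark the shares over all genes tested, 20.7% higher and 12.4% lower, and the microglia and macrophage list lies farthest to the left with 11 of 16 lower.

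Proliferation genes were called in both directions, with more lower than higher calls once NEP tumor arrays 1 and 2 were left out. Of 33 cell cycle genes tested, 6 were called higher and 6 lower, with a median of -0.07. Top2a, the topoisomerase of dividing cells, had a difference of 0.00 and Mki67, the antigen Ki-67, of -0.18, and neither was called. Mki67 was called lower after a second quantile normalization (-0.22, adjusted p = 0.0345) and after centring (-0.25, adjusted p = 0.0359), and the mean of all Top2a probe sets was called lower (-0.26, adjusted p = 0.0106). Plk1, a kinase of mitosis, was lower by 0.44 (adjusted p = 0.00749), Ccna2, a cyclin of S and G2 phase, by 0.36 (adjusted p = 0.00601), and Ccnb2, a mitotic cyclin, was higher by 0.26 (adjusted p = 0.0142). Without NEP tumor arrays 1 and 2, 2 were called higher and 12 lower, against 20.8% and 13.6% of all genes. Without arrays 3 and 4, 8 were called higher and 4 lower, near the shares of all genes (24.7% and 14.6%). Plk1 was not called in the fit of 19 arrays (adjusted p = 0.0621).

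Of 10 CDK inhibitors and pocket proteins, 1 was called higher and 2 lower, with a median of -0.15, and 2 and 5 without NEP tumor arrays 1 and 2. Rbl2, a pocket protein on chromosome 8, was higher by 0.45 (adjusted p = 0.0032) and Cdkn2d lower by 0.42 (adjusted p = 0.00314), the other lower call being Cdkn2b (-0.49). Of 15 targets of p53, 3 were called higher and 3 lower, with a median of -0.06. This even balance was 1 higher and 7 lower without NEP tumor arrays 1 and 2, and 4 and 3 without arrays 3 and 4. Pmaip1, the apoptosis activator Noxa, was higher by 1.64 (SE 0.25, adjusted p = 0.00144), at 6.82, 6.48, 6.05 and 6.16 against 5.18, 5.03, 4.69 and 4.04. Plk3, a stress kinase, was lower by 1.25 (SE 0.11, adjusted p = 6.78e-05), Bbc3, the apoptosis activator Puma, by 0.72 (adjusted p = 0.00016), and Mdm2, the ligase that degrades p53, by 0.48 (adjusted p = 0.000388). Both named activators of apoptosis passed the test, in opposite directions.

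Wnt modulators and targets were called higher in 6 and lower in 0 of 18, with a median of 0.27. Sfrp2, a secreted Wnt modulator, stood at 9.31, 9.45, 9.20 and 9.31 on NEP tumor arrays 1 to 4 and at 7.45, 7.24, 7.34 and 7.31 on GNP tumor arrays 1 to 4. The difference of 1.98 (SE 0.077, adjusted p = 5.71e-07) was 3.95-fold and was nearly equal on every array. Rnf43, a ligase that removes Wnt receptors, was higher by 1.65 (SE 0.14, adjusted p = 6.77e-05), Nkd1, an inhibitor on chromosome 8, by 1.02 (adjusted p = 0.00145), and the receptor Fzd1 by 0.79 (adjusted p = 0.000415). Axin2, the target most often used as a readout of the canonical pathway, had a difference of 0.01 (95% interval -0.22 to 0.25) and was not called.

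In the BMP pathway, 4 of 15 genes were called higher and 1 lower, with a median of 0.13 (5 and 0 without NEP tumor arrays 1 and 2, 3 and 3 without arrays 3 and 4), and the member of lowest p was Id2, a dominant-negative partner of bHLH factors (0.48, adjusted p = 0.00537). In the IGF axis, 3 of 12 were called higher and 1, Igf2, lower, with a median of 0.23. That balance turned, from 7 higher and 1 lower without NEP tumor arrays 1 and 2 to 1 and 4 without arrays 3 and 4. Of 14 chemokine and adhesion genes of granule progenitors, 6 were called higher and 1 lower, with a median of 0.37. Cxcl12, the chemokine that holds granule progenitors at the surface of the cerebellum, was higher by 0.94 (SE 0.20, adjusted p = 0.00751) and its receptor Cxcr4 by 0.49 (adjusted p = 0.00867). Cxcr4 stood at 10.73, 10.63, 10.20 and 10.43 against 9.99, 9.97, 10.07 and 9.99, and Cxcl12, on chromosome 6, at 6.29, 6.61, 7.29 and 7.07 against 6.06, 5.90, 5.62 and 5.94. The ligand was highest on NEP tumor array 3, where the receptor was lowest among the NEP tumors. Cxcl12 was not called in the fit of 19 arrays (adjusted p = 0.457). Cdh8, Cdh11 and Pard3, further higher calls of this list (0.99, 0.90 and 0.62), lie on chromosome 8.

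Of 21 axon guidance genes tested, 5 were called higher and 3 lower (23.8% and 14.3%, against 20.7% and 12.4% of all genes). The median of the list was 0.09. Robo1, a Slit receptor, was higher by 1.23 (SE 0.10, adjusted p = 6.24e-05), at 9.12, 8.72, 9.13 and 9.04 against 7.85, 7.74, 7.85 and 7.67. Robo2, its paralog, was lower by 1.19 (SE 0.18, adjusted p = 0.00125), at 3.13, 2.53, 2.60 and 2.26 against 3.92, 3.70, 4.07 and 3.59. These Slit receptors thus differed in opposite directions with no overlap of arrays. Sema4d, a semaphorin, was higher by 1.06 (adjusted p = 0.000231). Of 10 AMPA, NMDA and GABA receptor subunits, 3 were called higher and 1 lower, with a median of 0.05. The counts were 4 and 0 without NEP tumor arrays 1 and 2, and 3 and 3 without arrays 3 and 4. The largest difference was that of Gabrb2 (1.03, adjusted p = 0.00232). The GNP tumor signals of Gabrb2, 2.06 to 2.16, lay below the array medians of 2.54 to 2.55, so its difference has no firm size. Of 16 genes of glycolysis and hypoxia, 1 was called higher and 2 lower, with a median of 0.12; the lower calls were Ndrg1 (-0.64) and Ddit4 (-0.46), both induced by stress. Ndrg1 was not called in the mean of its probe sets (-0.15, adjusted p = 0.107).

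The spread within NEP tumors was the widest in genes that split the arrays. The range over the 4 arrays was at least 2-fold in 521 genes within NEP tumors and in 17 within GNP tumors, and the median SD of a gene was 0.151 against 0.0982. Of the 387 genes at least 2-fold apart between NEP tumor arrays 1 and 2 and array 3, 124 were higher in arrays 1 and 2 and 263 in array 3. Array 4 stood at a median of 42.6% of the way from array 3 to arrays 1 and 2. Lin7a, a scaffold protein of synapses and cell junctions, had the largest contrast, at 5.67, 4.85, 9.90 and 9.15 on NEP tumor arrays 1 to 4 against 8.91 to 8.99 in GNP tumors. Arrays 3 and 4 were near the GNP tumors, while arrays 1 and 2 were far below. Hmgcll1, a lyase of ketone body synthesis, was also high on arrays 3 and 4, at 6.17, 5.80, 9.63 and 8.99, but its GNP tumors were low, at 5.24 to 5.57. In the opposite order, with arrays 1 and 2 high, Cntn6, an adhesion protein of neurons on chromosome 6, stood at 6.18, 6.33, 2.45 and 4.37 against 2.49 to 2.71, and Wif1, an inhibitor of Wnt ligands, at 6.17, 5.84, 2.35 and 4.75 against 3.27 to 4.10. 9330179D12Rik, also on chromosome 6, was high on NEP tumor arrays 3 and 4, at 6.42 and 5.37, and stood at 3.14 and 2.55 on arrays 1 and 2. Array 4 lay between array 3 and arrays 1 and 2 in each of these 5 genes, which had the largest SD within NEP tumors. The 5 genes with the largest SD within GNP tumors were E030024N20Rik (4.04, 2.86, 3.13 and 4.42 on arrays 1 to 4), Gm17739, Rufy2, Syndig1l and A330076H08Rik, with SDs of 0.52 to 0.74, against 1.7 to 2.5 for those of NEP tumors.

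**Figure D5:**
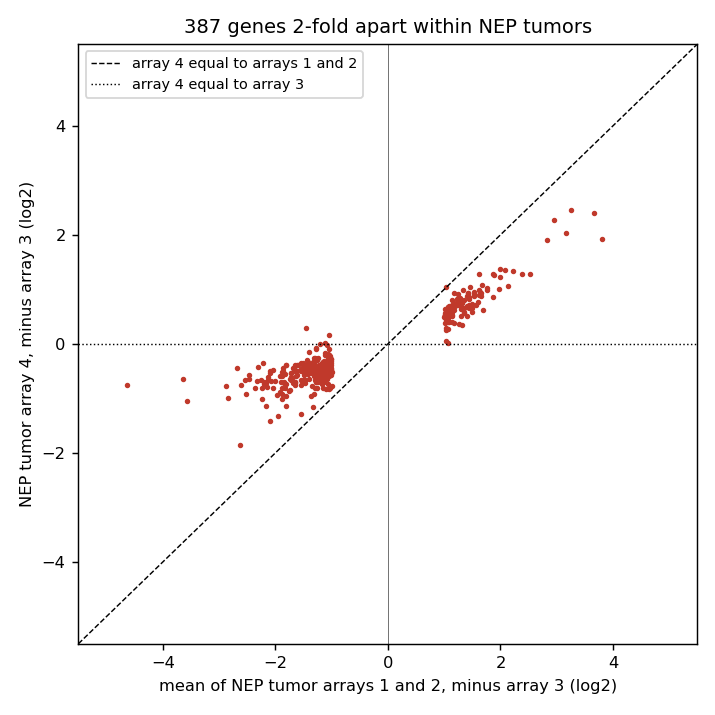
Each point is 1 of the 387 genes at least 2-fold apart between the mean of NEP tumor arrays 1 and 2 and array 3 (horizontal axis, log2), with array 4 minus array 3 on the vertical axis (log2). Points between the dotted and dashed lines, 383 of 387, are genes in which array 4 lies between array 3 and the mean of arrays 1 and 2.

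The tumor differences of the marker genes were set against the difference between their progenitors, NEP minus GNP, in a fit of all 19 arrays. The 2 tumor groups share an array series and so do these 2 progenitor groups, and each difference was taken within its series. Atoh1 was lower in NEP progenitors than in GNP progenitors by 4.90 (SE 0.48) and higher in NEP tumors than in GNP tumors, and the tumor difference exceeded the progenitor difference by 5.95 (SE 0.68, adjusted p = 1.33e-06). For Cadps2 the progenitor difference was -5.52 and the excess 8.12 (SE 0.65, adjusted p = 1.72e-08). For Gli1 the progenitor difference was -0.97 and the excess 1.30 (SE 0.37, adjusted p = 0.00584), and for Egr3 they were 1.05 and 2.80 (SE 0.51, adjusted p = 0.000184). Egr3 lay below the array median on all 4 GNP progenitor arrays (1.07 to 1.40) and on 2 of 4 NEP progenitor arrays (1.87 to 2.63, with array medians of 2.51 to 2.57), so that its progenitor difference and excess have no firm size. For Nes the progenitor difference was 2.38, larger than that of the tumors, and the excess was -1.43 (SE 0.38, adjusted p = 0.0041). The differences of Atoh1, Cadps2 and Gli1 thus had opposite signs in progenitors and tumors, though in this fit the tumor differences of Atoh1 (adjusted p = 0.12) and Gli1 (adjusted p = 0.386) were not called. Nes kept its sign with a smaller difference. Ptch1 had an excess of 0.01 (adjusted p = 0.947). The NEP progenitor arrays spread widely in Atoh1, with 3.95 ± 1.6 (SD, n = 4) against 8.85 ± 0.086 in GNP progenitors.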

How the data were processed

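The authors deposited log2 signals per probe set for 19 Affymetrix Mouse430+2 arrays. Per the submitters' processing notes they were made with RMA in Affymetrix Expression Console, and per the labels' protocols Trizol RNA was labelled after amplification by the Ambion WT Expression Kit. RMA pulls low signals toward each other, which narrows differences between dim genes. Array number, not read depth, limits the precision here, with 4 arrays in each tumor group.

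Of 45101 probe sets, 64 were controls, 34945 carried 1 gene symbol, 932 several and 9160 none; 34741 of those with 1 symbol matched a RefSeq gene. Each of the 18193 genes was represented by 1 probe set, the one of highest mean signal on the 19 arrays, and 626 genes of X and Y were left out. The tumor groups were compared over the 8 tumor arrays alone with limma 3.58.1 in R 4.3.3 (lmFit and eBayes, two-sided tests, Benjamini-Hochberg adjustment over the 10760 genes tested), with no covariate. The progenitor comparison used a fit of 5 group means over 19 arrays. Among 1694 called genes with a further probe set above the filter, 183 (10.8%) had one called in the opposite direction; of the genes named, this held for Ptch1. The fit was tested on simulated data.

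The genes named are the 15 largest differences in each direction, the marker genes, members of 30 gene lists, and the 5 genes with the largest SD within each group. The 15 were taken among called genes that do not overlap between groups and reach the array median on every array of the higher group. Members and lists were chosen with earlier results of these data known, and the lists are described by counts and medians, with no test of a list. Array numbers did not pair the tumors: same-numbered arrays correlated at 0.06, -0.001, -0.047 and 0.045 in their deviations from the group means. Alternatives covered the probe set, the filter, the scaling, the variance model, arrays left out and the chromosomes, and those that leave out NEP tumor arrays 1 and 2 or 3 and 4 in the list counts, or chromosomes 6 and 8, were chosen after seeing the data.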

Additional observations from a re-analysis of the deposited data

Results flagged for a closer look

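The markers whose tumor difference departed from the progenitor difference were Atoh1, by 5.95 on the log2 scale, Cadps2, by 8.12, Egr3, by 2.80, Gli1, by 1.30, and Nes, by -1.43 (limma, adjusted p from 1.72e-08 to 0.00584). The value of Egr3 has no firm size, since its mean in both progenitor groups, 2.29 in NEP and 1.23 in GNP, lay below the array medians. Xist, an X-linked gene left out of the comparison, was 7.45 higher in NEP tumors.

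In 9 of 302 groups of 4 arrays, over the genes named, 1 array lay far from the other 3 for its group's range; chance alone would give about 15.1. Low values were those of Mr1 (6.06), Lgals3 (3.32) and Plk3 (4.17), each on NEP tumor array 1, and of Aldh1a2 on GNP tumor array 4 (3.94) and Ddit4 on GNP tumor array 1 (10.11). High values were those of Gfap (5.84) and Cdkn2b (4.71) on NEP tumor array 2 of H2-Aa on GNP tumor array 3 (9.02) and of Cldn5 on GNP tumor array 1 (6.19). The groups of Mr1, Lgals3, H2-Aa, Gfap, Aldh1a2, Plk3, Cdkn2b and Ddit4 did not overlap, and those of Cldn5 did.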

How the results depend on the processing

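The 3556 calls became 2370 with a filter at the 75 percentile of each array and 6590 with array weights, a fit whose weights did not fully converge; the higher calls became 1394 and 3952, and array weights gave 2638 lower. Of at least 2-fold calls, the higher became 111 when probe sets were averaged and 65 with the stricter filter, which left 79 lower. With the replicate block, which the array numbers do not warrant, 2988 were called, 1885 higher and 1103 lower. Leaving out 1 array gave 2584 to 4104 calls.

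Of 151 genes named, 93 kept direction and call under each of the 23 alternatives that could be run for them. 6 reversed: Cldn5 (-0.41) and Esam (-0.28) without NEP tumor arrays 3 and 4, Lin7a without NEP tumor arrays 1 and 2 (0.58), Nr4a3 with the probe set brightest in tumors (0.074), and Ptch1 (-0.33) and Top2a (-0.26) with the mean of all probe sets. The fit of 19 arrays ended 26 calls, those of Atoh1 and the microglia markers among them. It leaves each tumor difference as it is and takes the variance from the spread within all 5 groups, which can widen or narrow it. In that limma fit 9330179D12Rik and Hmgcll1 gained a call (adjusted p = 0.0277 and 0.0115). Leaving out 1 array changed the call of 18. Otherwise the causes were not tested. Leaving out chromosomes 6 and 8 changed no call of the 134 genes named elsewhere. It left the values and differences of those genes as they were, so it says nothing on the part of the chromosome shifts in them.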
